A study of Glycine max with 12 samples.

Results

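The genes described here code for Casparian strip membrane proteins (CASPs) and CASP-like proteins of soybean (Glycine max), measured in roots exposed to aluminium (Al). They were found by the text of the array annotation, as main probe sets whose gene title holds "CASP-like" or "Casparian". This gave 65 of 66195 main probe sets, spread over all 20 chromosomes. Of these, 9 carry a title of Casparian strip membrane protein, 54 a title of CASP-like protein, and 2 the title "protein CASP-like". The last 2, LOC100780863 and LOC100784316, carry another domain (CASP, C-terminal), that of a Golgi coiled-coil protein of the same short name, so their titles match but they are not members of the membrane protein family. The domain of the plant membrane family itself is annotated on 59 of the 65 probe sets. The annotation marks all 65 as unique to one transcript cluster, although 2 neighbouring ones on chromosome 18 list the same pair of genes.

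CASPs are small proteins with several membrane spans. In Arabidopsis they gather in a belt of the plasma membrane of the endodermis, the innermost cell layer of the root cortex, and bring together the peroxidase, oxidase and dirigent proteins that lay down the Casparian strip. This strip is a ring of lignin in the cell wall that stops solutes from moving between cells into the vascular cylinder. CASP-like proteins are the wider family, found in many tissues, and the role of most of them is not known.

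Each of the 12 arrays held root RNA of 1 variety, 1 treatment and 1 time. The varieties were Guangfengmaliaodu, called GF in the labels and described there as Al-sensitive, and KF, described as Al-tolerant. Seedlings were raised in sand for 3 days and then kept in 0.5 mM CaCl2 at pH 4.3 either without AlCl3 (control) or with 25 µM of it (Al), for 6, 12 or 24 h, so the controls too were in acid, calcium-only solution. No condition was repeated, and the number of plants behind an array is not given in the sources used here. Values are the deposited normalized intensities on a linear scale, and effects are log2 ratios of Al over control, or of KF over GF, with limma's standard error after ±. The p-values therefore rest on how much an effect varied across times and varieties, not on repeated samples.

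Array medians over main probe sets lay between 1.67 and 1.70 on the log2 scale. The 23 background probe sets, which match no soybean sequence, had median intensities from 3.02 to 4.65, the highest on the GF 24 h control array, and 95th percentiles from 29.3 to 72.8. An intensity near or below an array's background median is treated here as a bound and not as a level. Positive control and intron probe sets had lower medians with Al in 6 of 6 pairs of arrays, and at 24 h the positive control median differed by −0.96 in GF and −1.32 in KF, that of chloroplast probe sets by −1.05 and −0.92, and that of rRNA by −0.20 and −0.31. The spiked controls also differed at 24 h, the bacterial ones by −0.71 in GF and −0.26 in KF, the poly-A ones by −0.83 and −0.15 and the other maker's controls by −0.84 and −0.49, and the background median differed by −0.44 in GF and 0.03 in KF. Among the 38 probe sets of the root list, 12 were at or below the highest background median on every array, against 40 of 55 in the shoot list and 21 of 21 in the seed list. The root list holds all 9 CASPs, so it is no separate measure. The summed intensity of the shoot list was 908 to 1028 on control and 460 to 953 on Al arrays. That of the root list was lower, at 386 to 561 on control and 287 to 660 on Al arrays. The part of these shifts in the results below was not tested.

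Of the 65 probe sets, 48 passed the filter on low signal (mean log2 intensity above 1.12): all 9 CASPs, 37 CASP-like genes and both of the other family. The 17 that did not pass are all CASP-like, and none of them exceeded an intensity of 2.81 on any array. Nothing is said of their response.

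The CASPs are described first. They lie in a row of 4 genes on chromosome 2 (41538563 to 41576011), a row of 3 on chromosome 10 (7641577 to 7661230), and singly on chromosomes 12 and 19. With Al, 5 of the 9 CASPs fell at 24 h, lower in both varieties. In the single KF pair at 6 h all 9 were below control, and 4 of those 5 were at least 2-fold lower. At 12 h most CASPs were above control, some of them too close to background to be read. Because whole roots were sampled, fewer endodermal cells and less RNA per cell cannot be told apart.

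The CASP 5-like gene LOC100816461 (GLYMA19G24400, chromosome 19, 29978080 to 29980772, minus strand) shows the course in full. In GF its control intensities were 30.1 at 6 h, 38.3 at 12 h and 59.9 at 24 h, and its Al intensities at those times were 52.6, 88.7 and 11.2. In KF the controls were at 75.6, 24.1 and 49.4, and the Al arrays at 22.2, 131 and 4.10. The 12 h Al arrays of both varieties were thus the brightest of all 12, above every control array, and the 24 h Al arrays the dimmest. Within KF the controls themselves differed by time, and the 12 h control was the lowest of them. At 24 h the gene fell by 3.01 ± 0.61 on the log2 scale over the 2 pairs (limma, adjusted p = 0.0149), 5.36-fold in GF and 12.0-fold in KF.

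The CASP 2 gene LOC100500661 (GLYMA02G36170, chromosome 2, 41568456 to 41570435, minus strand) followed the same order. Its GF controls were at 28.2, 31.9 and 32.1 at 6, 12 and 24 h, and its GF Al arrays at 53.3, 68.2 and 6.10. The KF controls were at 53.4, 27.6 and 33.3, and the KF Al arrays at 11.3, 77.7 and 3.07. Both 12 h Al arrays again exceeded every control array, and the KF 24 h Al array lay below its background median, so the difference there is at least 9.18-fold. Over the 2 pairs at 24 h the gene fell by 2.92 ± 0.66 (adjusted p = 0.0219), and in GF alone it was 5.26-fold lower.

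The CASP 3-like gene LOC100775221 (GLYMA02G36140, chromosome 2, 41538563 to 41540311, minus strand) differed from both at 12 h. Its GF controls were at 114, 103 and 125, and its GF Al arrays at 114, 96.2 and 28.6. Its KF controls were at 118, 85.4 and 68.0, and its KF Al arrays at 20.8, 68.5 and 5.61. In GF the 6 h and 12 h Al arrays were therefore close to their controls, while in KF the 6 h Al array was already 5.70-fold lower. At 24 h it was 4.36-fold lower in GF and 12.1-fold lower in KF, and it fell by 2.86 ± 0.58 over the 2 pairs (adjusted p = 0.0149).

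On chromosome 10, the CASP 2-like gene LOC100816413 (GLYMA10G08730, 7645443 to 7648556, plus strand) had GF controls of 5.59, 4.58 and 7.52 and GF Al intensities of 5.55, 9.40 and 2.54 at 6, 12 and 24 h. In KF the controls were 5.80, 5.30 and 5.06 and the Al intensities 3.08, 10.5 and 1.66. The 12 h Al arrays were the brightest here as well, and both 24 h Al arrays were below their background medians, which makes the difference at least 2.19-fold in GF and at least 1.40-fold in KF. The fitted fall at 24 h was 1.59 ± 0.25 (adjusted p = 0.00509), a value that depends on the background. Its neighbour, the CASP 4 gene LOC100500387 (GLYMA10G08740, 7659526 to 7661230, plus strand), had GF controls of 17.3, 14.5 and 18.6 against 21.0, 17.5 and 5.41 with Al, and KF controls of 18.1, 10.9 and 11.4 against 6.42, 12.3 and 4.44. It fell by 1.57 ± 0.40 at 24 h (adjusted p = 0.0334), with little difference at 12 h in either variety.

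The other 4 CASPs did not pass. The CASP 5 gene LOC100527457 was 2.22-fold lower at 24 h in GF, from 8.30 to 3.74, and at least 1.27-fold lower in KF, and its estimate at 24 h was −0.80 (adjusted p = 0.0957). It was above the background median on 11 of 12 arrays, against 10 for LOC100816413, so the genes that passed are not all brighter than those that did not. The CASP 1-like gene that the gene table names CASP2 ranged from 2.38 to 6.19 over the 12 arrays, LOC100777381 from 2.57 to 5.89 and LOC100775765 from 1.69 to 4.27. These 3 share the rows on chromosomes 2 and 10 with genes that fell, but stay too close to background for a response to be read.

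**Figure D1:**
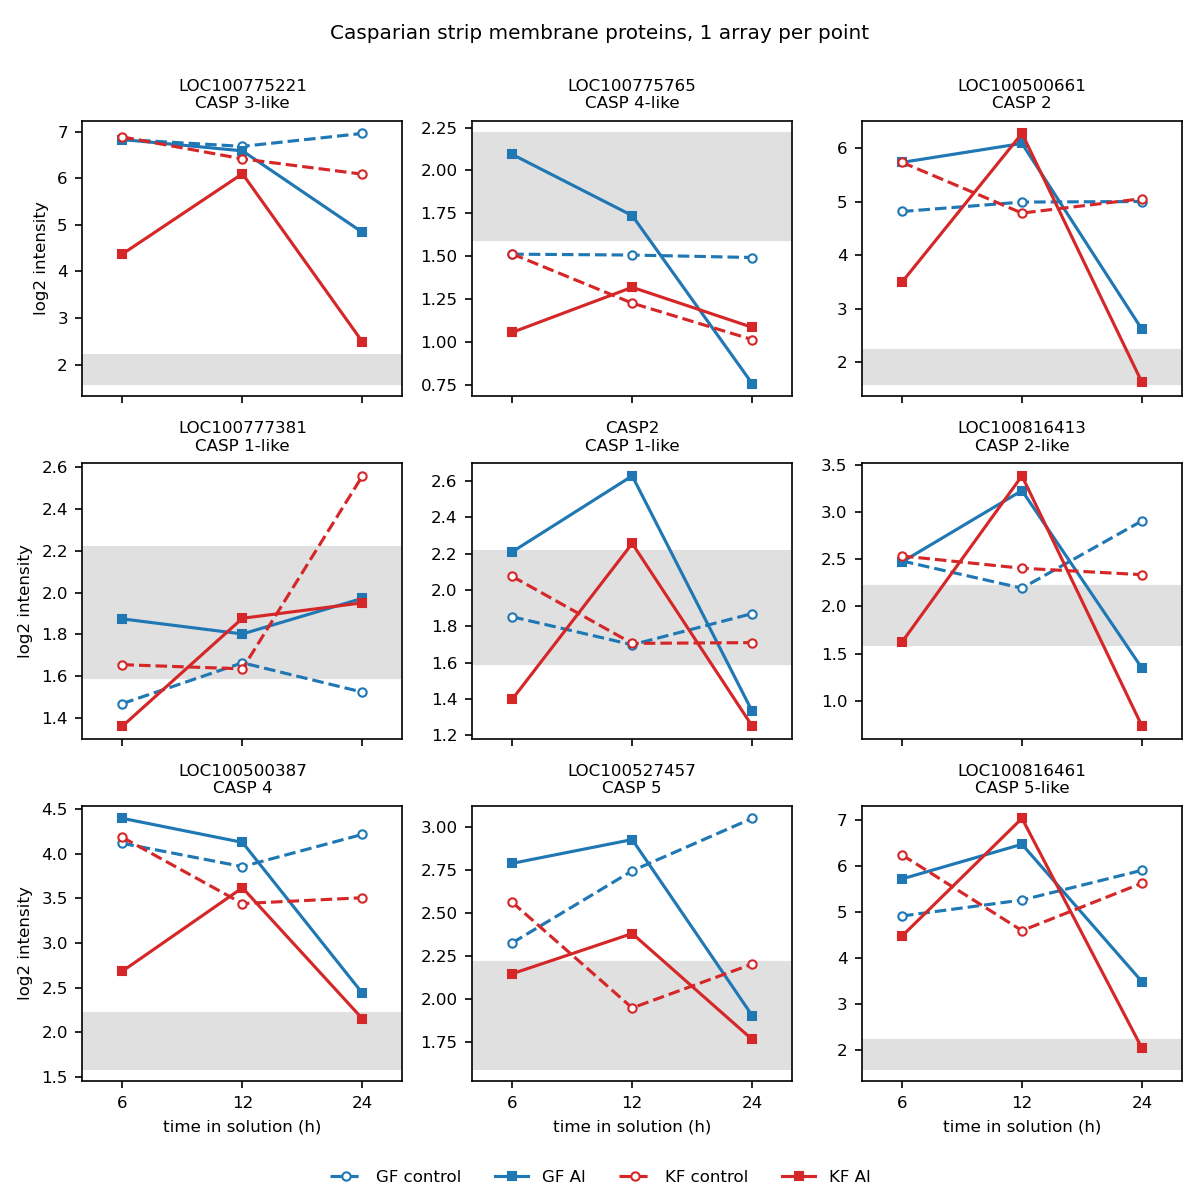
Log2 intensity of the 9 Casparian strip membrane proteins (CASPs) against time in solution (h), 1 array per point, with GF in blue, KF in red, controls as open circles with dashed lines and Al as filled squares with solid lines. The grey band spans the background medians of the 12 arrays (3.02 to 4.65 on the linear scale). For LOC100816461 and LOC100500661 both Al lines peak at 12 h and drop at 24 h, and at 6 h the KF Al points lie below the KF control.

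Counted over the class, 5 of 9 CASPs fell at 24 h, 0 rose and 4 did not pass, with a class median of −1.57. Over all 49646 probe sets tested, 19.5% were called at 24 h (10.6% higher and 8.93% lower), with a median of −0.07. All 9 CASPs also stand in the endodermis marker list, with other titles of SCARECROW, so that list is no separate measure. Of its 14 tested probe sets 5 fell at 24 h, the same 5 CASPs, and 0 rose, so no SCARECROW probe set was called at that time. At 12 h 1 of the 14 was called higher, against 2.45% of all probe sets. As 0 of 9 CASPs passed at 12 h, that probe set carries a SCARECROW title. The summed intensity of the list was 260 to 372 on control and 87.1 to 415 on Al arrays. Of all 48 members tested, 17 were called at 24 h, 7 higher and 10 lower, against that same 19.5%. Within single pairs, 6 of 9 CASPs were at least 2-fold lower at 24 h in GF (5.51% of all probe sets in that pair) and 5 of 9 in KF (14.0%), or 4 of 9 in KF when LOC100816413 is held to its bound of 1.40-fold. Without the KF 24 h pair only 3 of the 48 members were called at 24 h, when that time rests on 1 GF pair, and LOC100816413 was then the one CASP called. Without the GF 12 h pair 11 members were called. LOC100816461, LOC100500661 and LOC100775221 lost their calls only without the KF 24 h pair, with GF values of −2.42, −2.40 and −2.12. LOC100500387 lost its call without either 12 h pair or either 24 h pair, at values from −1.78 to −1.36.

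At 12 h, 8 of 9 CASPs were above control in GF and 8 of 9 in KF. The class medians were 0.27 and 0.43, against −0.04 and −0.05 over all probe sets. These counts of signs include CASP2, LOC100777381 and LOC100775765, too close to background for a response to be read. At least a 2-fold rise was seen in 3 of 9 in GF (5.02% of all probe sets) and in 2 of 9 in KF (5.75%), up to 5.44-fold for LOC100816461 in KF. By limma 0 of 9 CASPs passed at 12 h, where 2.96% of all probe sets were called and 3 CASPs had an unadjusted p below 0.05. LOC100816413 came nearest (1.01 ± 0.25, adjusted p = 0.0832). The change between times was tested as the 24 h minus the 12 h effect, a contrast chosen after its values were seen. Of 48 members 3 were called, all lower (1.07% of all probe sets, 0.115% lower). LOC100816413 passed (−2.60 ± 0.35, adjusted p = 0.0221), while LOC100816461 (−4.83 ± 0.87, adjusted p = 0.06) and LOC100500661 (−4.21 ± 0.93, adjusted p = 0.105) did not. Leaving out a 12 h pair, or the KF 24 h pair, ended this call of LOC100816413 (−2.63 to −2.57).

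At 6 h the 2 varieties went different ways in these arrays. The counts of signs again include CASP2, LOC100777381 and LOC100775765, whose responses cannot be read. In KF 9 of 9 CASPs were below control, with a class median of −0.92 against −0.02 over all probe sets. Of the 9, 4 were at least 2-fold lower (2.41% of all probe sets in that pair). These were LOC100775221, LOC100500661, LOC100816461 (3.41-fold) and LOC100500387 (2.82-fold). In GF 7 of 9 were above control, with a class median of 0.40 against −0.02 over all probe sets. There 0 of 9 differed by 2-fold (3.33% of all probe sets were at least 2-fold higher and 1.97% lower). With 1 pair per variety at 6 h this difference has no test. Over both pairs at 6 h, limma called 0 of 48 members, 5 of which had an unadjusted p below 0.05, against 0.707% of all probe sets called.

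Among the CASP-like genes, 5 fell at 24 h. CASP-like 1, LOC100500346 (GLYMA02G12200, chromosome 2, 10428065 to 10430151, plus strand), had GF controls of 23.9, 32.9 and 50.3 and Al intensities of 40.7, 53.2 and 5.58 at 6, 12 and 24 h. In KF the controls were 49.9, 23.6 and 39.1 and the Al intensities 43.7, 41.4 and 3.14. The 24 h Al arrays were the dimmest, the other 10 lying between 23.6 and 53.2. Against the 24 h control the difference was 9.01-fold in GF and at least 10.8-fold in KF. It fell by 3.41 ± 0.30 at 24 h (adjusted p = 0.000462), a call that no left-out pair removed. The 24 h effect was lower than the 6 h effect by limma (−3.70 ± 0.42, adjusted p = 0.00839, the 1 of 48 members called, against 2.12% of all probe sets, 0.171% lower) and lower than the 12 h effect (−4.16 ± 0.42, adjusted p = 0.00898). The first of these calls was lost without either 6 h pair (−3.22 without that of GF, −4.18 without that of KF) and the second without either 12 h pair (−4.22 and −4.10).

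CASP-like 2, LOC100527420 (GLYMA20G04470, chromosome 20, 4610243 to 4612281, minus strand), turned from above to below control between 12 and 24 h in both varieties. Its GF controls were 8.04, 10.7 and 13.0 and its GF Al intensities 6.81, 64.6 and 5.07. Its KF controls were 47.3, 12.9 and 30.0 and its KF Al intensities 14.5, 76.4 and 4.14. The KF controls varied widely by time, with the 12 h control lowest, yet both 12 h Al arrays were above every control. It rose at 12 h by 2.58 ± 0.44 (adjusted p = 0.0299), the single member called there out of 48 (2.45% of all probe sets were called higher), and fell at 24 h by 2.11 ± 0.44 (adjusted p = 0.017). The 24 h minus 12 h contrast was −4.68 ± 0.63 (adjusted p = 0.0222). The 12 h call was lost without either 12 h pair (2.56 and 2.59), the 24 h call without the KF 24 h pair (−1.36), and the contrast without any one of the 6 h and 12 h pairs (−4.70 to −4.67).

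The genes LOC100783028 (POPTRDRAFT_553757-like, GLYMA07G01980, chromosome 7, 1377936 to 1380633, plus strand) and LOC100808345 (RCOM_1446020-like, GLYMA16G05560, chromosome 16, 4868123 to 4869862, minus strand) were bright in all controls and fell at 24 h. LOC100783028 had control intensities of 140 to 155 in GF and 111 to 179 in KF, and Al intensities at 6, 12 and 24 h of 139, 232 and 56.2 in GF and 111, 108 and 13.6 in KF. LOC100808345 had controls of 83.8 to 100 in GF and 105 to 122 in KF, and Al intensities of 115, 131 and 29.7 in GF and 65.4, 91.2 and 13.9 in KF. In both genes each variety's 24 h Al array was below its controls, more so in KF. LOC100783028 fell by 2.17 ± 0.43 (adjusted p = 0.0137) and LOC100808345 by 2.21 ± 0.43 (adjusted p = 0.0125), both calls being lost without the KF 24 h pair (−1.31 and −1.5). A smaller and steadier fall was that of LOC100790715 (At3g23200-like, GLYMA10G01020, chromosome 10, 732642 to 735244). Its controls at 6, 12 and 24 h were 10.1, 10.4 and 5.73 in GF and 8.84, 7.74 and 7.10 in KF, against 7.23, 6.91 and 3.58 and 6.16, 4.64 and 2.94 with Al. It was lower with Al in 6 of 6 pairs, by 1.40-fold to 1.60-fold in GF and by 1.44-fold, 1.67-fold and at least 1.96-fold at 6, 12 and 24 h in KF. Its effect over both varieties was −0.71 ± 0.13 (n = 6 pairs, adjusted p = 0.019), a call lost without any 1 of the GF pairs or the KF 12 h pair (−0.74 to −0.69). At 24 h it fell by 0.98 ± 0.23 (adjusted p = 0.0235), and only the fit without the GF 24 h pair kept that call (−1.28, against −0.98 to −0.68 in the others).

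Other CASP-like genes rose with Al. CASP-like 8, LOC100306097 (GLYMA17G02600, chromosome 17, 1686339 to 1688714, minus strand), had GF controls of 6.55, 5.15 and 7.03 and GF Al intensities of 18.0, 17.7 and 16.9. Its KF controls were 6.78, 4.79 and 4.90 and its KF Al intensities 8.70, 8.60 and 11.6. All 6 Al arrays lay above all 6 controls, and GF with Al above KF with Al. It rose by 1.16 ± 0.16 over both varieties (n = 6 pairs, limma, adjusted p = 0.00711) and in GF alone (adjusted p = 0.0355, n = 3 pairs, 2.41-fold to 3.44-fold). CASP-like 7, LOC100499706 (GLYMA07G38110, chromosome 7, 42967176 to 42969570, plus strand), had GF controls of 89.2, 84.4 and 99.3 and GF Al intensities of 310, 278 and 252. Its KF controls were 122, 87.3 and 77.7 and its KF Al intensities 180, 127 and 90.5. In GF the groups stood well apart, and in KF they overlapped. It rose by 1.03 ± 0.15 over both varieties (adjusted p = 0.0088) and by 1.62 ± 0.21 in GF (adjusted p = 0.0232), and its estimate in KF was 0.44. Both genes kept their calls over both varieties in all 6 fits that left out 1 pair, and lost those in GF without any 1 of the GF pairs or the KF 12 h pair (1.36 to 1.62 for LOC100306097, 1.53 to 1.76 for LOC100499706).

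Titles of 5 tested members refer to the Arabidopsis locus At2g36330, and these differed among themselves. LOC100785751 (GLYMA17G09780, chromosome 17, 7285718 to 7286797) had GF controls of 71.9, 61.9 and 62.3 against 91.4, 112 and 98.1 with Al, and KF controls of 49.1, 56.2 and 40.9 against 104, 193 and 110. It rose by 1.03 ± 0.17 over both varieties (adjusted p = 0.0118) and by 1.43 ± 0.23 in KF (adjusted p = 0.0219). LOC100812568 (GLYMA05G02140, chromosome 5, 1563130 to 1564269) went from 16.6, 11.8 and 15.4 to 19.4, 25.5 and 24.7 in GF and from 14.0, 14.6 and 12.0 to 30.9, 33.3 and 42.7 in KF. It too rose over both varieties (1.03 ± 0.18, adjusted p = 0.015), in KF (1.38 ± 0.25, adjusted p = 0.0295) and at 24 h (1.25 ± 0.35, adjusted p = 0.0451). For both genes the Al arrays of each variety lay above all its controls.

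The third, LOC100808291 (GLYMA06G19450, chromosome 6, 15712985 to 15715052), rose by 0.80 ± 0.20 over both varieties (adjusted p = 0.0423). Its Al intensities were 103, 117 and 128 in GF and 148, 137 and 71.8 in KF, against 55.0 to 73.5 in the 6 controls, so the KF 24 h Al array alone fell within the control range. LOC100812893, dimmer, had controls at 6, 12 and 24 h of 6.42, 5.02 and 4.12 in GF and 7.50, 6.39 and 5.65 in KF, against 6.35, 5.86 and 6.00 and 8.21, 8.14 and 11.2 with Al. Its groups overlapped except at 24 h, when it rose by 0.76 ± 0.21 (limma, adjusted p = 0.0469). The GF control at 24 h was below its background median of 4.65, so the GF difference there is a bound. LOC100789870 passed nowhere, with 0.09 ± 0.20 over both varieties and 40.0 on the KF 24 h Al array against 52.7 to 75.0 in controls. Over both varieties, LOC100785751 lost its call without either 12 h pair (0.97 and 0.94), LOC100812568 without the GF 12 h, GF 24 h or KF 12 h pair (0.92 to 1.08), and LOC100808291 without any pair but that of KF at 24 h (0.70 to 0.85). In KF the call of LOC100785751 ended when a 12 h pair or the KF 24 h pair was left out (1.26 to 1.43), and that of LOC100812568 also when the GF 6 h pair was (1.16 to 1.48). The 24 h calls of LOC100812568 and LOC100812893 were lost without any pair but that of GF at 24 h (0.68 to 1.25 and 0.54 to 0.76).

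Late rises from near background completed the group. LOC100789012 (At3g23200-like, GLYMA20G34500, chromosome 20, 42880130 to 42883953) was at 3.79 to 5.16 in the 6 controls, at 7.38, 5.28 and 7.85 with Al in GF and at 6.07, 7.79 and 22.4 in KF. It rose over both varieties (0.87 ± 0.22, adjusted p = 0.0413) and at 24 h (1.52 ± 0.34, adjusted p = 0.0221). LOC100790715, which shares its title, went the other way, as given above. CASP-like 12, LOC100500517, was at 8.81 in GF and 22.4 in KF with Al at 24 h, and at 3.36 to 4.88 on the other 10 arrays, and it rose at 24 h by 1.71 ± 0.35 (limma, adjusted p = 0.015). The GF 24 h controls of LOC100789012 (4.18) and LOC100500517 (4.54) were below the background median of that array (4.65). Their GF differences at 24 h are therefore bounds, at least 1.90-fold for LOC100500517. LOC100813033 (POPTRDRAFT_822486-like) was at 4.65, 4.60 and 2.74 in GF controls and at 4.34, 5.25 and 9.70 with Al, and at 4.73, 4.13 and 3.21 in KF controls and at 5.39, 8.44 and 10.2 with Al. It rose at 24 h by 1.75 ± 0.25 (adjusted p = 0.00349), at least 2.09-fold in GF and at least 2.89-fold in KF, the 24 h controls of both being below their background medians. The 24 h call of LOC100306097 (1.26 ± 0.34, adjusted p = 0.0395) and a call of LOC100791311 among intensities that give no level (0.44 ± 0.12, adjusted p = 0.0399, from 2.30 to 3.13 in GF and from 2.20 to 2.98 in KF, with 2.11 to 2.48 on the other arrays and all 12 below background) complete the 7 members higher at 24 h. Among these 24 h calls, that of LOC100813033 held in all 6 fits that left out a pair, and that of LOC100791311 in 0 of 6 (0.44 to 0.45). The call of LOC100500517 ended without the KF 24 h pair (0.96), that of LOC100789012 also without either 6 h pair (0.91 to 1.52), and that of LOC100306097 without any 1 of the 12 h and 24 h pairs (1.24 to 1.27). Over both varieties LOC100789012 kept its call only without the KF 6 h pair (0.65 to 1.05 in the 6 fits).

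**Figure D2:**
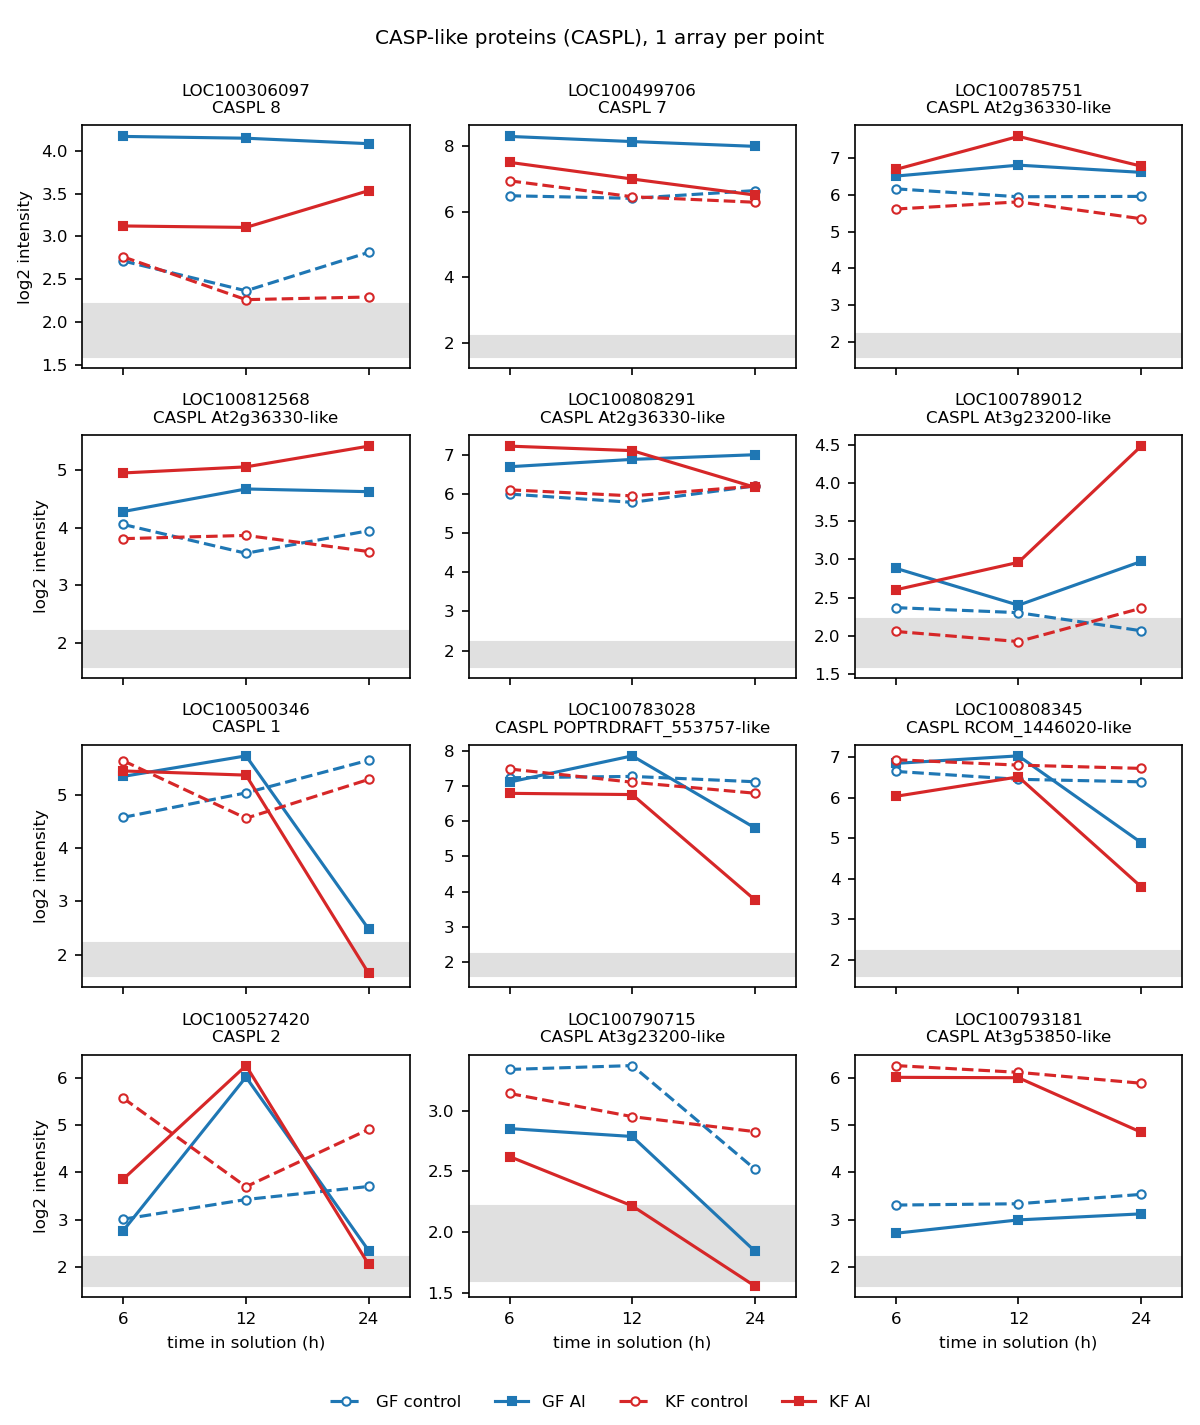
Log2 intensity of 12 CASP-like (CASPL) genes against time in solution (h), 1 array per point, with GF in blue, KF in red, controls as open circles with dashed lines and Al as filled squares with solid lines; the grey band spans the background medians of the 12 arrays. In the panels of LOC100306097 and LOC100499706 the GF Al line is the highest throughout, the Al lines of LOC100500346, LOC100783028, LOC100808345 and LOC100527420 drop at 24 h, and both KF lines of LOC100793181 lie above both GF lines.

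Over both varieties 7 of 48 members were called (6 higher, 1 lower), or 14.6%, against 13.8% of all 49646 probe sets (6.59% higher and 7.19% lower). This share is near the background and is not a result about the family. In GF 2 of 48 were called, both higher (0.828% of all probe sets, 0.719% higher), and in KF 2 of 48, both higher (5.48%, 2.78% higher). Leaving out either 12 h pair brought the number called over both varieties to 2, leaving out the GF 24 h pair to 3, and leaving out the GF 6 h pair to 4. In GF it was 0 without any 1 of the GF pairs or the KF 12 h pair. In KF it was 0 when a 12 h pair or the KF 24 h pair was left out, 1 when the 6 h pair of GF was and 4 when that of KF was. The difference of the Al effect between the varieties was called by limma in 0 of 48 members and in 2 of 49646 probe sets (0.00403%), with 3 members at an unadjusted p below 0.05. The smallest of these belonged to LOC100499706 (−1.18 ± 0.30, adjusted p = 0.953), so its larger rise in GF was not shown to differ from that in KF.

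**Figure D3:**
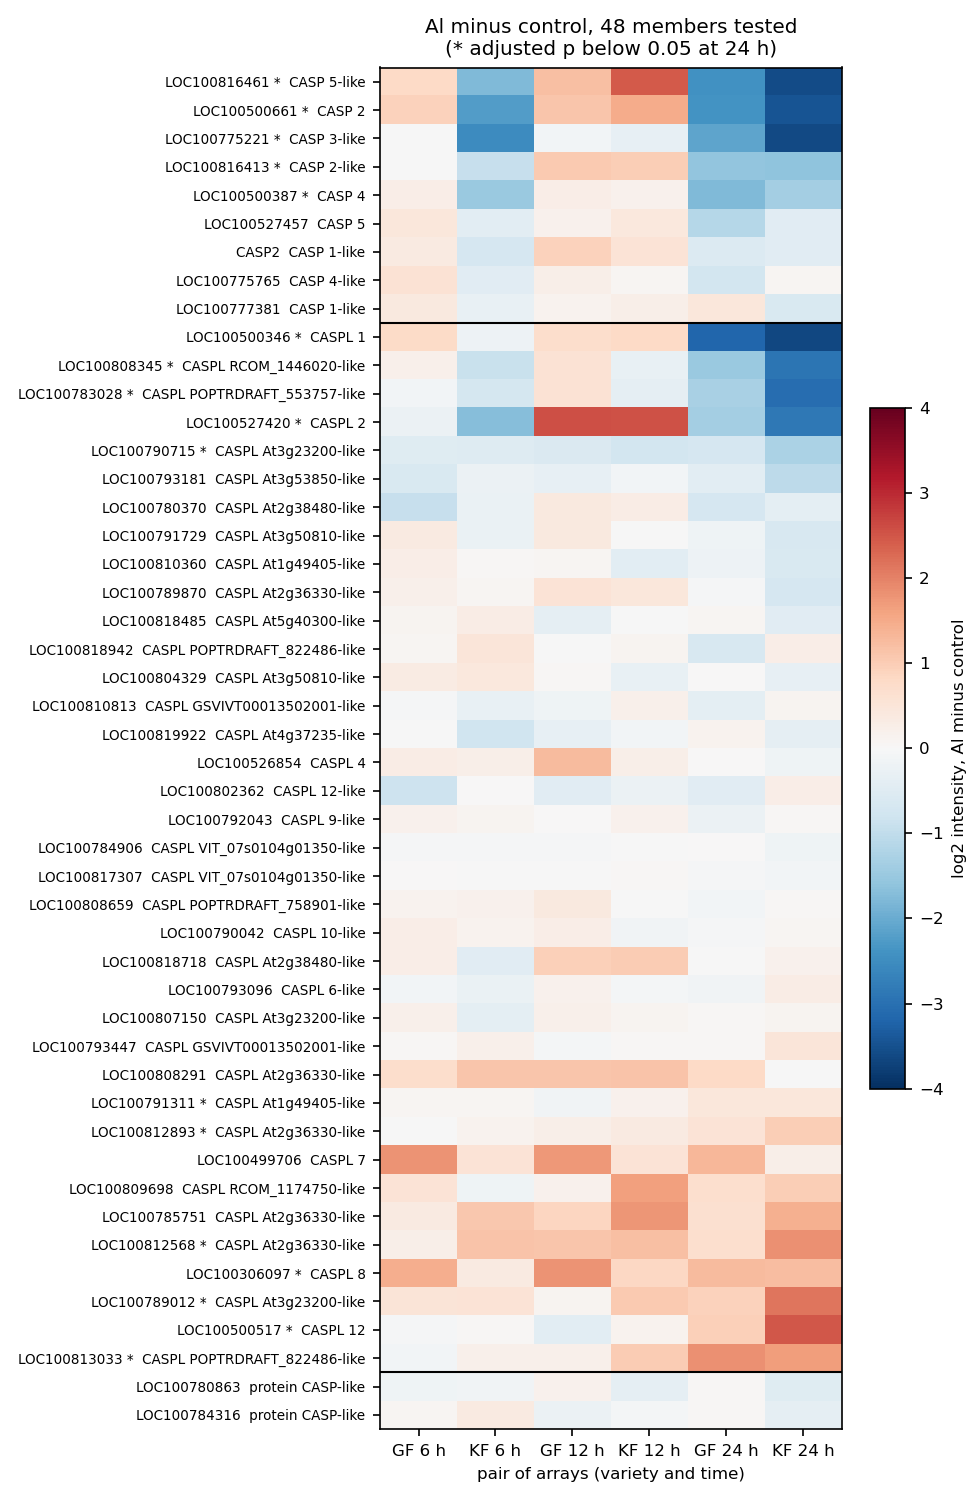
Log2 intensity with Al minus control in each of the 6 pairs of arrays (columns) for the 48 members tested (rows), red for higher and blue for lower with Al; lines separate the 9 CASPs, 37 CASP-like (CASPL) genes and 2 genes of the other family, and a star marks the 17 members called at 24 h. The upper CASP rows are blue in both 24 h pairs and in the KF 6 h pair, and pale or red at 12 h.

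The varieties were then compared at equal treatment and time. In control roots 1 of 48 members was called, higher in KF (1.26% of all probe sets, 0.826% higher). With Al 4 of 48 were called (2.25%), 1 higher (1.24%) and 3 lower (1.02%). LOC100793181 (At3g53850-like, GLYMA03G11670, chromosome 3, 14346471 to 14350949, plus strand) was called in both. It was at 9.90, 10.1 and 11.6 in GF controls and at 76.7, 69.5 and 59.2 in KF controls at 6, 12 and 24 h. With Al it was at 6.55, 7.97 and 8.70 in GF and at 64.6, 64.2 and 28.9 in KF. Every KF array was above every GF array, by 3.32-fold to 9.86-fold within a treatment and time. KF exceeded GF by 2.70 ± 0.29 in control (n = 3 pairs, adjusted p = 0.00312) and by 2.68 ± 0.29 with Al (adjusted p = 0.00259). The control call was lost without the control 12 h pair (2.65), and the call with Al held in all 6 fits that left out a pair. The count in control was then 0, and it was 3 without the Al 24 h pair. Whether the varieties differ in sequence under the 18 probes was not tested.

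With Al, LOC100499706 was lower in KF by 1.13 ± 0.21 (adjusted p = 0.0302), LOC100306097 by 0.88 ± 0.19 (adjusted p = 0.0498) and the CASP 3-like gene LOC100775221 by 1.77 ± 0.36 (adjusted p = 0.0445). The order held in 3 of 3 pairs for each of the 3 genes, with ratios of GF over KF of 1.72 to 2.78 for LOC100499706, 1.46 to 2.06 for LOC100306097 and 1.41 to 5.49 for LOC100775221. The groups of LOC100775221 overlapped, those of the other 2 did not. These calls were less firm than that of LOC100793181. LOC100775221 was not called without any pair but the Al 12 h pair (−1.77 to −1.42), LOC100306097 without any but the Al 24 h pair (−0.88 to −0.79), and LOC100499706 not without the control 12 h pair or any 1 of the Al pairs (−1.31 to −0.96). The number of members called with Al was 2 after cyclic loess normalization and 1 without blocks, and was 1 or 2 in each of the 6 fits that left out a pair.

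**Figure D4:**
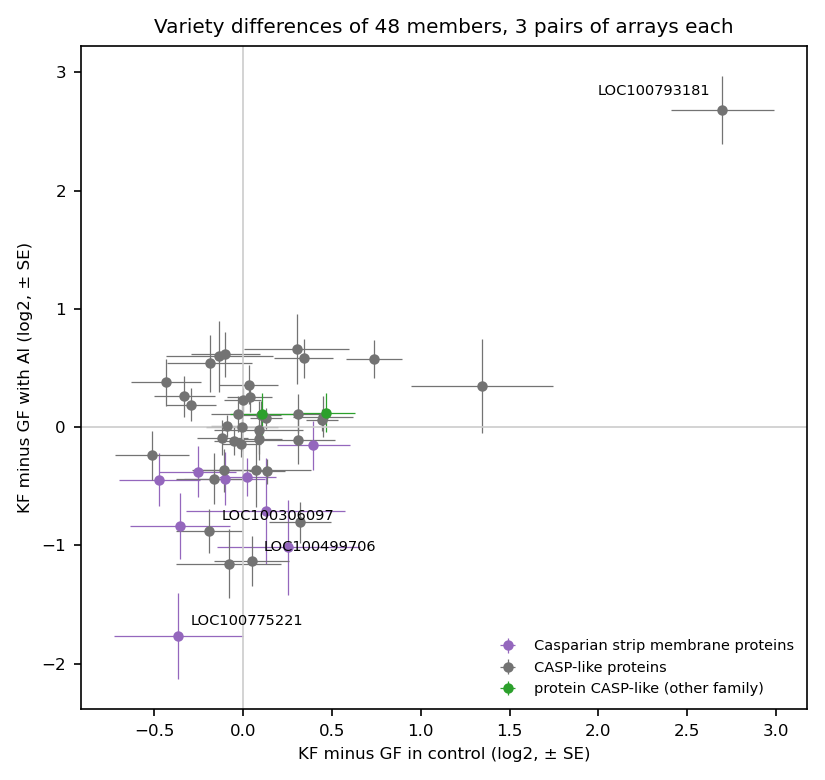
Estimated difference of KF minus GF in control (horizontal) and with Al (vertical) on the log2 scale for the 48 members tested, each from 3 pairs of arrays with limma's standard error as bars. LOC100793181 stands at 2.70 and 2.68, and the labelled LOC100306097, LOC100499706 and LOC100775221 lie below 0 with Al. None of these last was called in control, where the pairs of LOC100775221 differed by 0.05, −0.27 and −0.88 at 6, 12 and 24 h.

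In control roots limma called 0 of 48 members between 6 and 24 h, and 0 of the 49646 probe sets (0%). Without adjustment 5 members and 6287 probe sets had a p below 0.05. A test that called no probe set cannot show that the controls were steady. The falls at 24 h described above were fitted against same-time controls. Over the 3 times the KF controls of LOC100816461 and LOC100527420 ranged from 24.1 to 75.6 and from 12.9 to 47.3.

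Families that include genes acting with CASPs at the Casparian strip, or in the suberin that coats endodermal cells, were counted from lists made on gene titles. Each count is to be read against all probe sets tested, of which 13.8% were called over both varieties (6.59% higher, 7.19% lower) and 19.5% at 24 h (10.6% higher, 8.93% lower). Of 15 dirigent-type probe sets tested, the family of the lignin-guiding protein ESB1 of Arabidopsis, 2 (13.3%) rose over both varieties and 0 fell, and 3 rose at 24 h. The first 2 were PTS3 (adjusted p = 0.00445) and PTS4 (adjusted p = 0.0343), at or below background in 6 of 6 controls, so their rises are given as at least 1.31-fold and at least 1.19-fold. Of 41 laccases, copper enzymes that can oxidise lignin precursors, 1 rose and 2 fell over both varieties (7.32% of the list). LOC100798292 (laccase-7-like) fell by 1.43 ± 0.25 (adjusted p = 0.0145), LOC100815453 (laccase-9-like) fell by 1.38 ± 0.27 (adjusted p = 0.0217), and LOC100814779, also laccase-7-like, rose at least 3.31-fold (adjusted p = 0.0211) from controls all below background. Of 4 uclacyanin and blue copper probe sets 1 (25%) rose over both varieties and 3 at 24 h, and the first was LOC100788784 (adjusted p = 0.00655 over both varieties), 8.02-fold higher when the 4 of 6 controls at or below background are set to the background median.

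Of 17 receptor kinases titled GSO1 or GSO2, the family of the receptor that senses an incomplete strip in Arabidopsis, 2 rose and 1 fell over both varieties (17.6% of the list). With arrays at or below background set to the background median, LOC100786447 rose 4.79-fold (adjusted p = 0.0266, 5 of 6 controls so set) and LOC100806632 rose 1.72-fold (adjusted p = 0.0141, 3 of 6). LOC100811366 was 3.05-fold lower on the same terms (adjusted p = 0.00758, 2 of 6 Al arrays so set). Of 14 NADPH oxidases, which supply the reactive oxygen for lignin formation, 2 rose and 0 fell over both varieties. That is 14.3% of the list, against 13.8% of all probe sets called and 6.59% called higher. The 2 were the F-like gene LOC100801077 (limma, 1.28 ± 0.19, adjusted p = 0.00894), F being the isoform used at the strip in Arabidopsis, and the B-like gene LOC100820185 (at least 3.11-fold, adjusted p = 0.0428, 6 of 6 controls below background). At 24 h 4 NADPH oxidases rose (28.6%) and 1 fell (7.14%), against 10.6% and 8.93% of all probe sets. Of 6 peroxidases titled 64 or 72, 2 rose (33.3%), both 72-like (LOC100810663 at 0.80 ± 0.18, adjusted p = 0.0327, and LOC100777733 at 0.51 ± 0.14, adjusted p = 0.0483), and none fell.

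Among regulators, 17 of 58 SHR, SCR and scarecrow-like probe sets rose (29.3%) and 1 fell (1.72%) over both varieties, and 22 rose (37.9%) and 2 fell (3.45%) at 24 h, with list medians of 0.34 and 0.47 against −0.04 and −0.07 over all probe sets. The 3 named by size were titled scarecrow-like and are not SHR or SCR, the regulators of endodermal identity. They were LOC100807048 (scarecrow-like 1, 2.11 ± 0.32, adjusted p = 0.00965), LOC100776109 (scarecrow-like 13, 1.94 ± 0.26, adjusted p = 0.00661) and LOC100792931 (scarecrow-like 13, 1.51 ± 0.30, adjusted p = 0.0217). Of 7 MYB probe sets whose titles matched the list, 1 (14.3%) rose, LOC778167, titled MYB94 (limma, 1.07 ± 0.17, adjusted p = 0.0106). That title was caught by a shorter text of the list and is not itself named in it, so a role in endodermis or suberin is not shown. Of 81 acyl enzymes matched for suberin, 4 rose and 3 fell over both varieties (8.64% of the list). They included the feruloyl transferase-like gene LOC100797134, of the enzyme family that joins ferulate to suberin (1.01 ± 0.17, adjusted p = 0.0124), and the 3-ketoacyl-CoA synthase LOC100790385 (2.17 ± 0.34, adjusted p = 0.0103). LOC100792858, which fell by 1.33 ± 0.35 (adjusted p = 0.0476), is an acyltransferase of the general glycerolipid pathway that the text of the list also caught. At 24 h the list medians were −0.17 for laccases, −0.23 for GSO receptors, 0.20 for NADPH oxidases and 0.01 for suberin enzymes. They were 0.12 for dirigent-type probe sets, −0.17 for peroxidases 64 and 72 and 0.04 for the MYB list. The 4 uclacyanin and blue copper probe sets had a median of 1.64, and the CASPs one of −1.57.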

How the data were processed

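RNA of 12 root samples was measured on 1-colour Affymetrix arrays from 0.1 µg of total RNA each, per the labels' protocols. The authors deposited normalized intensities, 1 value for each probe set on each array and not log-transformed; their summarisation and normalization method is not given in the sources used here. Another 24 columns of the deposited annotation table have numbered headings that match no sample label, and were left out. Positions and titles are those of the deposited annotation, which cites GLYMA gene models and names no genome build. Symbols were updated by gene ID from the RefSeq table of assembly Glycine_max_v4.0, which held 64 of 65 members and renamed 1.

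Intensities were taken to log2 without a pseudocount. A filter removed the dimmest 25% of main probe sets (mean log2 of 1.12 or below), and the other 49646 were tested with limma 3.58.1 (lmFit, eBayes with trend) in R 4.3.3. Tables used Python 3.11.15 with pandas 2.3.3. For Al, each variety and time was a block, and Al was fitted either by variety (residual degrees of freedom: 4) or by time (3). For varieties, each treatment and time was a block (4), and for time in control each variety and treatment (4). P-values were adjusted by Benjamini-Hochberg over all probe sets tested and called below 0.05. The number of arrays limits the precision. The fit was tested on simulated data. Alternatives were no filter, the brighter 33097 probe sets, cyclic loess, a pseudocount of 1, no blocks, and leaving out each pair; leaving out pairs in the fits per time, and the contrast of 24 h minus 12 h, were added after seeing the data.

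The members, lists and tests were chosen with earlier results of these data known. Per-array values are given for members called in any planned comparison, for the 5 largest rises and falls over both varieties and for the 3 brightest CASPs, other members by range. Per list, the 3 called members of largest effect are named. The lists came from text matches and can catch unrelated genes. No sequences are printed, since none was used here.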

Additional observations from a re-analysis of the deposited data

Results flagged for a closer look

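For 13 of the 48 members tested, the Al effect had one sign in both varieties at one time and the other sign in both at another time, or the difference between times passed its test. The share of all probe sets that meet this rule was not counted, so the 13 are not read as a result about the family. Between 12 and 24 h the effect differed by −4.16 for LOC100500346, −2.60 for LOC100816413 and −4.68 for LOC100527420, which passed by limma (adjusted p = 0.00898, 0.0221 and 0.0222). It differed by −4.83 for LOC100816461, −4.21 for LOC100500661, −1.79 for LOC100500387, −1.24 for CASP2, −1.10 for LOC100527457, −0.88 for LOC100780370 and −0.87 for LOC100789870, which did not pass (adjusted p = 0.06 for the first and 0.105 to 0.331 for the others).

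Between 6 and 24 h it differed by −3.70 for LOC100500346, which passed (adjusted p = 0.00839), and by −0.56 for LOC100810360 and −0.50 for LOC100789870, which did not (adjusted p = 0.291 and 0.551). Between 6 and 12 h the Al effect differed by 3.55 for LOC100527420, 1.47 for LOC100816413, 0.94 for LOC100780370, −0.40 for LOC100818485 and −0.37 for LOC100784316, and these differences were not tested.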

How the results depend on the processing

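Counts of members called moved by over 1.5 times under few settings other than leaving out a pair. At 12 h the count was 2 in the brighter 33097 probe sets and 2 after cyclic loess, against 1. For KF against GF in control it was 2 after cyclic loess, against 1, and with Al 2 after cyclic loess and 1 without blocks, against 4. Of the single-gene calls, 37 of 37 held in the brighter probe sets, 36 of 38 after cyclic loess, 37 of 38 with a pseudocount, 33 of 38 without the filter and 11 of 16 without blocks, and 0 changed sign. When 1 pair at a time was left out, 127 of 228 calls held. The count then ranged from 2 to 7 for Al over both varieties, from 0 to 2 in GF, from 0 to 4 in KF, from 0 to 5 at 12 h, from 3 to 16 at 24 h, from 0 to 4 for 24 h minus 6 h, from 0 to 8 for 24 h minus 12 h, from 0 to 3 for the varieties in control and from 1 to 2 with Al. Such fits have fewer arrays; beyond that the cause was not tested. Arrays were paired by variety, treatment and time, as blocks; the labels carry no replicate numbers, so no block by replicate exists. Signals near or below the background medians limit what can be read from CASP2, LOC100775765, LOC100777381, LOC100527457, LOC100816413, LOC100791311 and LOC100810360.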

Other observations

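The domain of the CASP family is also annotated on 11 main probe sets whose titles do not name it, and 9 of them were tested. The examples here were chosen after their values were seen. LOC100306245 (GLYMA10G08750, chromosome 10, 7663391 to 7664808), titled uncharacterized, starts just beyond the row of 3 CASP genes on chromosome 10 that ends at 7661230. Its control intensities at 6, 12 and 24 h were 70.8, 64.3 and 96.0 in GF and 76.2, 53.6 and 59.5 in KF. With Al they were 55.2, 47.3 and 16.0 in GF and 8.72, 35.3 and 8.11 in KF. It fell over both varieties by 1.66 ± 0.42 (limma, adjusted p = 0.0428) and at 24 h by 2.73 ± 0.56 (adjusted p = 0.0155). Its KF Al array at 6 h was below control, as in 9 of 9 CASPs. LOC100306215 (GLYMA02G06820, chromosome 2, 5483290 to 5485494) went the other way, with controls of 32.5 to 49.2 and Al intensities of 55.9, 132 and 73.2 in GF and 60.3, 92.9 and 62.3 in KF. It rose over both varieties (0.99 ± 0.18, adjusted p = 0.0175), at 12 h (1.36 ± 0.24, adjusted p = 0.0311) and at 24 h (1.04 ± 0.24, adjusted p = 0.0221). LOC100526963 rose slightly over both varieties (0.45 ± 0.09, adjusted p = 0.0255). These 3 were called over both varieties, where 13.8% of all probe sets were.

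The 2 genes of the Golgi protein that share the short name CASP passed in no comparison of this report, with Al effects over both varieties of −0.16 for LOC100780863 and −0.04 for LOC100784316.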
